A study of Mus musculus with 32 samples.

Results

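The cells described here carried 2 or more UMIs of Nanog on day 6 of reprogramming in the medium called A2S. A UMI (unique molecular identifier) marks 1 captured transcript. The cells were chosen by their Nanog UMIs alone, among cells with 1000 or more UMIs that did not stand on the authors' list of feeder cells. There were 192 of them, 87 in replicate A and 105 in replicate B, of 484 such cells at A2S day 6 and of 7599 in the series. The series followed mouse embryonic fibroblasts (MEFs) on their way to induced pluripotent cells by single-cell RNA counts at the 3′ end of transcripts, in 16 groups of 2 libraries. Doxycycline at 2 ug/mL induced reprogramming in the fibroblast groups other than the untreated MEFs, on a layer of irradiated MEFs. The labels name neither the induced factors nor the genotype of the fibroblasts.

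A2S cultures received ascorbic acid (50 ug/mL) and SGC0946 (5 uM), an inhibitor of the histone methyltransferase DOT1L, and 12 h later 2i, which joins the MEK inhibitor PD-0325901 and the GSK3 inhibitor CHIR-99021. S2 cultures were treated in the same way without ascorbic acid, also to day 6. FBS cultures had serum medium and doxycycline with no small molecules and were taken up to day 12. The end state was represented by V6.5 embryonic stem cells (ESCs), 1 line, either in serum medium with leukaemia inhibitory factor (mESC FBS) or after 2 days of A2S (mESC A2S). The fibroblasts and the ESC line have different origins, so line and state cannot be told apart wherever reprogrammed cells are set against ESCs. The labels do not say that replicates A and B came from separate cultures. Between groups, the p-values therefore measure only the spread between libraries of a group, which may be technical. Within A2S day 6 the library was a block. There they measure only how far differences between cell classes disagreed from library to library, which may be technical too.

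Nanog is a homeodomain transcription factor that, with Pou5f1 (Oct4) and Sox2, holds together the regulatory network of pluripotent cells. On the path from a fibroblast to that state, matrix and mesenchymal genes are shut off, epithelial adhesion genes such as Epcam and Cdh1 come on, and the genes of the pluripotency network follow later and in steps. Dppa5a, an RNA-binding protein, Tdgf1, a co-receptor for Nodal, and Dppa3, a maternal factor that guards DNA against loss of methylation, are common marks of its late steps.

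The share of cells with 2 or more Nanog UMIs was higher at A2S day 6 than in any other group of doxycycline-treated cells. At day 6 it was 37.8% of replicate A (exact 95% binomial interval 31.5 to 44.4%) and 41.3% of replicate B (35.2 to 47.7%). In A2S it had been 0% in both libraries on day 2, which allows shares of up to 1.84 and 1.59%, and 4.18 and 5.03% on day 4. The day 6 shares in S2 were 17.8 and 14.3%, in A2 (ascorbic acid and 2i) 1.33 and 3.04%, and in AS (ascorbic acid and SGC0946) 4.31 and 7.32%. FBS cultures reached 6.49 and 6.84% on day 12, in 12 and 13 cells. No cell of 298 and 431 untreated MEFs passed, and the ESCs passed at 74.6 and 80.5% in serum and 91.7 and 95.2% in A2S. Intervals of this kind cover counting error only. When each cell was thinned to 5000 UMIs, the shares at A2S day 6 were 27.7 and 35.1%.

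**Figure D1:**
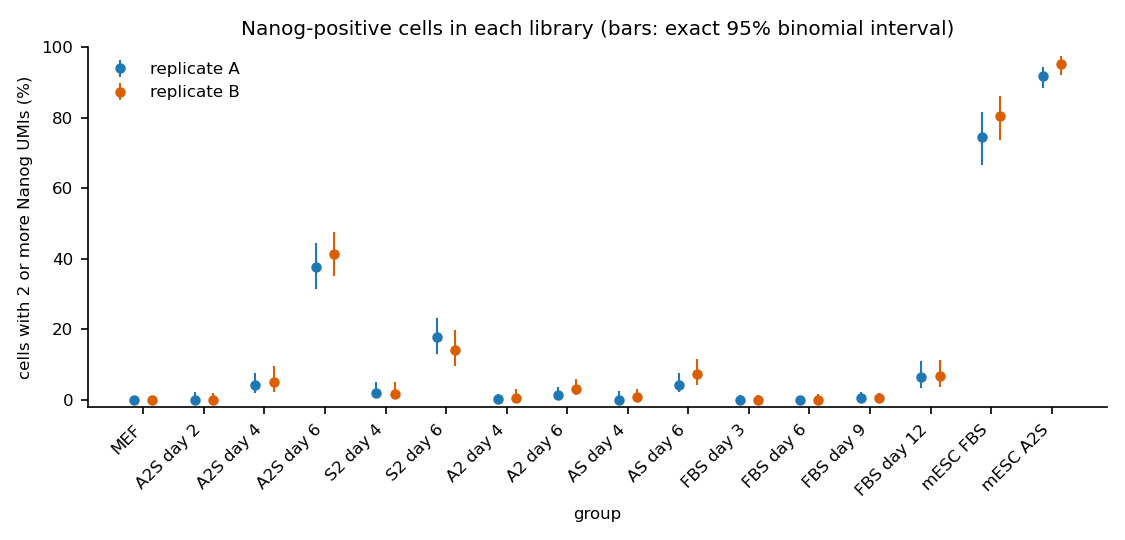
Share of cells with 2 or more Nanog UMIs (percent of kept cells, vertical axis) in each library of the 16 groups; points are libraries A and B and bars are exact 95% binomial intervals. A2S day 6, at 37.8 and 41.3%, stands above every other doxycycline-treated group and below both ESC groups.

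The 192 cells were deeper than Nanog-zero cells in replicate B and close to them in replicate A. Their median depth was 13167 UMIs in A and 12907 in B, against 12909.5 and 10009.5 in the 246 cells of the same libraries with no Nanog UMI (118 in A and 128 in B), and 46 further cells had exactly 1, with medians of 6878 and 11246. Their summed UMIs came to 1211520 and 1343860, and levels below are counts per 1000000 UMIs (CPM) of such a sum unless a share of cells is named. Scrublet called 3 of them a doublet in each library. No barcode was shared by the A2S day 6 libraries, 2 of the 192 barcodes recurred in another library, and 28 of the 7571 distinct barcodes of the series lay in more than 1. Chi-square per degree of freedom between the A and B sums was 1.64, so they differed by more than counting noise.

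The 3 other markers given for these cells, Tdgf1, Dppa3 and Dppa5a, did not choose them. They were named with earlier results of these data known, so they are not an independent check. Of the 192 cells, 137 (71.4%) had a UMI of Tdgf1, 83 (43.2%) of Dppa3 and 57 (29.7%) of Dppa5a. All 3 markers were seen in 45 cells (23.4%) and none in 43 (22.4%). The adhesion gene Epcam was seen in 185 cells, Epcam or Cdh1 in 191, and the fibroblast collagen Col1a1 in 6. The group thus carried the markers as a whole while many of its single cells showed only part of them.

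At a common depth of 5000 UMIs, Dppa3 and Pou5f1 came close to mESC A2S and the other genes given here did not. Dppa3 had a UMI in 30.4 and 30.9% of the Nanog-positive cells and in 33.4 and 38.0% of mESC A2S cells. Pou5f1 had one in 24.1 and 21.6% against 27.9 and 24.0%. Both genes were sparse in mESC A2S itself, Pou5f1 at 71.4 and 52.1 CPM and Dppa3 at 107 and 124, beside Sox2 at 628 and 572. Tdgf1 was seen in 59.5 and 70.1% against 91.6 and 92.2%. Dppa5a was seen in 21.5 and 23.7% against 84.4 and 87.2%, Sox2 in 21.5 and 27.8% against 92.9 and 90.3%, and Zfp42 (Rex1), a zinc-finger marker of naive ESCs, in 8.86 and 16.5% against 88.3 and 86.0%. Untreated MEFs, which should lack these genes, had no UMI of Dppa5a, Tdgf1, Dppa3 or Pou5f1 at that depth, and cells with no Nanog UMI had Dppa5a in 0.990 and 1.04%. The thinned shares rest on 79 and 97 Nanog-positive cells, 308 and 258 mESC A2S cells, 286 and 407 MEFs and 101 and 96 cells with no Nanog UMI.

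Summed levels on each side of the minimum of 2 Nanog UMIs are given here without a test. Tdgf1 stood at 37.0 and 52.0 CPM in cells with no Nanog UMI, 121 and 143 with 1, 262 and 57.5 with 2, and 227 and 304 with 3. Col1a1 stood at 226 and 198 CPM with none, 8.65 and 5.11 with 1, 0 in both libraries with 2, and 45.4 and 0 with 3. Cells with 1 Nanog UMI lay far below Nanog-zero cells in Col1a1 and above them in Tdgf1, and from 1 to 3 Nanog UMIs neither gene kept 1 order in both libraries. There were 33 cells at 2 Nanog UMIs and 110 at 6 or more, with medians of 7 in A and 6 in B and maxima of 40 and 48.

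The first comparison asked how Nanog-positive cells differed from Nanog-zero cells of the same libraries. The pluripotency network, epithelial genes and genes of DNA replication and mitosis were higher, and fibroblast matrix genes, mesenchymal regulators and p53 targets were lower. An edgeR quasi-likelihood test with Benjamini-Hochberg adjustment called 1668 of 10371 genes higher (16.1%) and 1910 lower (18.4%) at an adjusted p under 0.05, with the library as a block. The median log2 fold change of all genes tested was -0.00089.

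Of 21 tested pluripotency transcription factors, 16 were called higher and 1 lower, with a median log2 fold change of 2.09. Sox2, the partner of Pou5f1 on DNA, stood at 105 and 131 CPM in A and B against 3.19 and 0, a log2 fold change of 6.00 ± 0.40 (SE; adjusted p = 2.37e-09). Esrrb, an orphan nuclear receptor of the naive network, stood at 128 and 109 against 2.55 and 3.61 (log2 fold change 5.21 ± 0.33, adjusted p = 1.28e-09). Pou5f1 itself stood at 54.5 and 54.3 against 7.01 and 2.89 (3.39 ± 0.35, adjusted p = 6.74e-07). Copies of an induced factor could be counted as the cell's own gene, and their part in these levels was not tested. Sall4, a zinc-finger factor, stood at 154 and 124 against 21.0 and 27.4 CPM, and Klf2, a Krüppel-like factor of naive cells, at 383 and 298 against 63.1 and 52.0. Both were called higher with adjusted p of 5.28e-07 and 1.16e-09. Klf4 was at 38.8 and 39.4 against 35.1 and 12.3 CPM and was not called (adjusted p = 0.0783). Sall1 was the factor called lower, at 4.13 and 5.95 against 16.6 and 12.3, a call that DESeq2 did not make (adjusted p = 0.429). Nr5a2 and Tcl1 had no UMI in Nanog-zero cells. Against the 3 UMIs over both libraries that a count of 0 allows, they were at least 13.1-fold and 10.8-fold higher.

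Of 27 other tested genes linked to pluripotency, 23 were called higher and 2 lower, with a median of 2.72. Dppa5a stood at 163 and 171 CPM against 5.10 and 5.05 (log2 fold change 4.99 ± 0.25, adjusted p = 5.58e-11). Tdgf1 stood at 397 and 395 against 37.0 and 52.0 (3.14 ± 0.16, adjusted p = 5.58e-11), and Dppa3 at 149 and 141 against 14.0 and 2.89 (4.03 ± 0.31, adjusted p = 1.14e-08). The growth factor Fgf4, an enhancer target of Sox2 and Pou5f1, stood at 196 and 167 against 10.8 and 10.1. Tdh, the threonine dehydrogenase on which mouse ESCs depend, stood at 562 and 469 against 56.7 and 63.5. The libraries of both classes were well apart for each of these genes. Spp1 and Fgfr1 were the 2 called lower, and neither call held in DESeq2 (adjusted p = 0.386 and 0.233). Spp1, a secreted phosphoprotein of the list that fibroblasts also make, stood at 205 and 229 CPM against 245 and 345, and untreated MEFs had 1878 and 2023.

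Of 24 epithelial genes, 17 were called higher and 1 lower. Epcam stood at 590 and 471 CPM against 205 and 143 (log2 fold change 1.60 ± 0.12, adjusted p = 1.48e-08) and the adhesion molecule Cdh1 (E-cadherin) at 399 and 351 against 228 and 191 (0.82 ± 0.12, adjusted p = 3.37e-05). Krt19, a keratin, was the member called lower, at 20.6 and 26.8 against 75.2 and 52.0. All 28 tested fibroblast matrix and surface genes were called lower, with a median of -3.57 and summed levels of 1561 and 1659 CPM against 9793 and 10525. Col1a1 stood at 4.95 and 28.3 CPM against 226 and 198, and Thy1, a surface antigen of fibroblasts, at 13.2 and 9.67 against 168 and 104. Of 15 mesenchymal regulators, 14 were called lower, among them Twist1, which drives the mesenchymal programme, at 26.4 and 18.6 against 135 and 172.

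Genes of the cell cycle went one way in the count of calls. Of 40 S phase genes, 31 were called higher and none lower, and of 50 G2/M genes, 35 were higher and none lower, against the 16.1% and 18.4% of all genes. In the median Nanog-positive cell, S phase genes took 0.634 and 0.626% of UMIs against 0.185 and 0.241% in Nanog-zero cells. G2/M genes took 0.918 and 0.800% against 0.212 and 0.181%. The gap was smaller in the sums over all cells, at 6607 and 6300 against 3326 and 3373 CPM for S phase genes and 9152 and 8895 against 6245 and 5323 CPM for G2/M genes. Ung, the uracil glycosylase of DNA repair, stood at 149 and 144 CPM against 33.1 and 53.4, and Hmgb2, a chromatin protein of dividing cells, at 478 and 432 against 189 and 193. Of 25 p53 target and senescence genes, 17 were called lower and 1 higher. Cdkn1a (p21), the cell cycle inhibitor induced by p53, stood at 408 and 382 CPM against 657 and 819 (log2 fold change -0.92 ± 0.13, adjusted p = 2.18e-05). Of 11 genes that report ERK signalling 6 were called lower, with the immediate early gene Fos at 2.48 and 3.72 against 19.12 and 20.94.

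Genes outside the lists made up part of the strongest differences. Among called genes at 50 CPM or more with no overlap between libraries, the 8 with the most positive fold change were Sox2, Esrrb, Calcoco2, Dppa5a, Mylpf, Fgf4, Dppa3 and AA467197. Calcoco2, an autophagy receptor, stood at 152 and 141 CPM against 3.82 and 5.05, and Mylpf, a myosin light chain of fast muscle, at 151 and 169 against 4.46 and 10.1. The glucose transporter gene Slc2a3 stood at 1056 and 1235 against 164 and 339 (log2 fold change 2.24 ± 0.15, adjusted p = 2.89e-09), while the glycolysis list as a whole had 5 of 23 members called each way. Alpl, the alkaline phosphatase long used to stain pluripotent colonies, stood at 286 and 319 against 40.8 and 45.5, and Tet1, which oxidises methylcytosine, at 87.5 and 103 against 19.8 and 18.8. Markers of other cell types were low. Trophoblast, blood and endothelial lists summed to 36.3 and 36.5, 111 and 105, and 64.4 and 72.2 CPM, with 6 of 12, 9 of 12 and 4 of 11 members at 0 in both libraries. Not all of these were lower than in Nanog-zero cells, where the endothelial list summed to 60.5 and 52.7 CPM. Of 3 tested endothelial markers, 2 were called higher and 1 lower, beside 16.1% and 18.4% of all genes. Primitive endoderm markers summed to 349 and 416 CPM with 7 of 15 at 0, most of it in the basement membrane collagens Col4a1 (114 and 132) and Col4a2 (111 and 141), which were lower than in Nanog-zero cells.

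**Figure D2:**
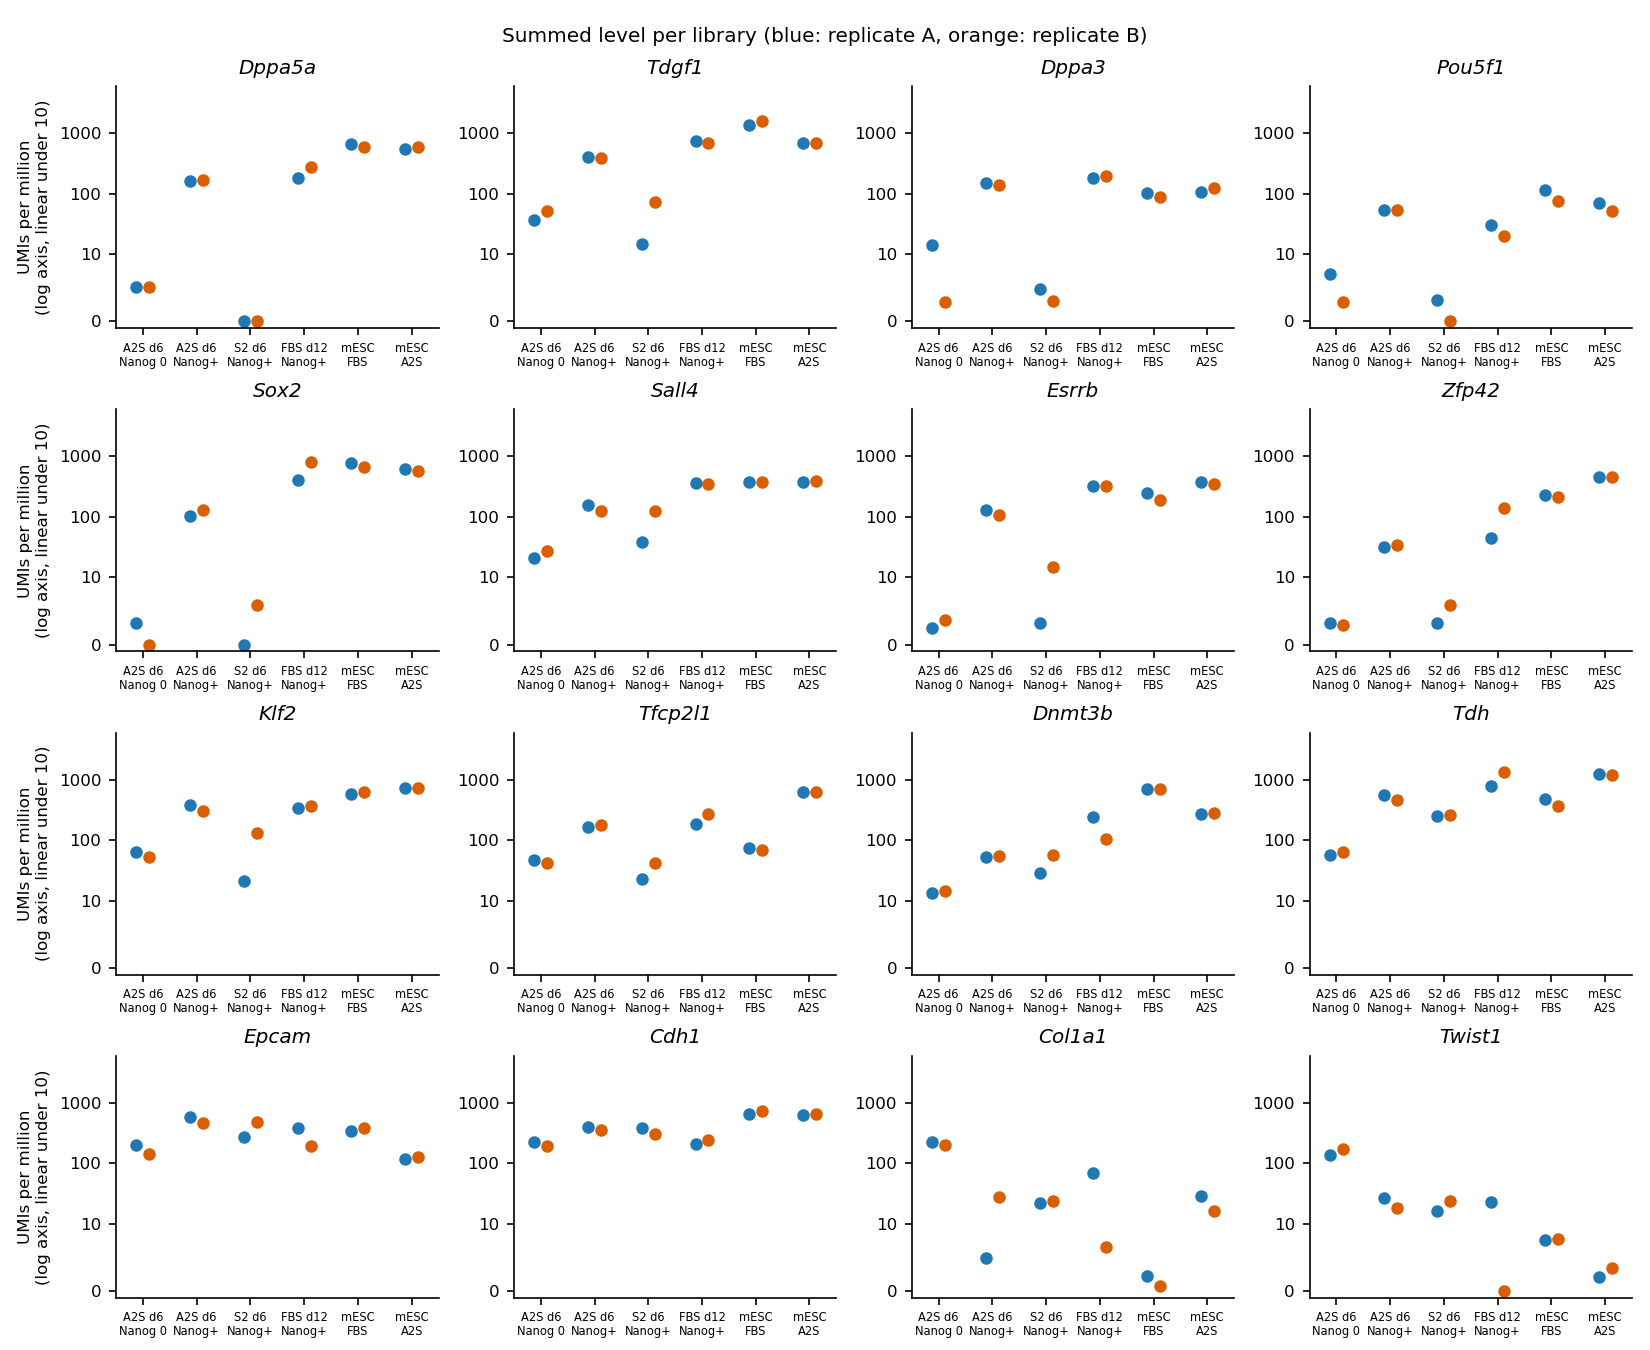
Level of 16 genes in CPM (vertical axis, linear near 0 and logarithmic above) in each library, A in blue and B in orange, for Nanog-zero and Nanog-positive A2S day 6 cells, Nanog-positive S2 day 6 and FBS day 12 cells, and ESCs. Sox2 and Zfp42 climb from Nanog-zero cells to Nanog-positive cells to ESCs, Dppa3 and Pou5f1 in Nanog-positive A2S cells are near their mESC A2S levels, and Epcam is higher there than in ESCs.

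The same comparison was made with the epithelial side of the Nanog-zero cells, the 96 with 2 or more Epcam UMIs (53 in A and 43 in B). Their fibroblast genes summed to 5739 and 3632 CPM, against 1561 and 1659 in the Nanog-positive cells, and 16 of 28 were called lower in the latter. Of 9549 genes, 625 were called higher (6.55%) and 961 lower (10.1%). DESeq2 called 118 higher and 299 lower, a smaller share of higher calls. Of 18 transcription factors, 12 were called higher and 1 lower (median log2 fold change 1.92), and of 25 other pluripotency genes, 21 and 1 (2.73), beside a median of 0.0048 over all genes. Of 22 epithelial genes, 9 were called higher and 1 lower.

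Sox2 showed the cleanest separation, at 105 and 131 CPM against 1.14 and 0, or 303 UMIs against 1, a ratio of 176 with a counting interval from 31.3 to 6959. Dppa5a stood at 163 and 171 against 3.43 and 4.96 (log2 fold change 5.31 ± 0.33, adjusted p = 7.97e-08). Tdgf1, at 397 and 395 against 49.1 and 76.0, was already detectable in the epithelial Nanog-zero cells (2.69 ± 0.21, adjusted p = 3.76e-07). Cdh1 was at 399 and 351 against 348 and 324 CPM and was not called (log2 fold change 0.15 ± 0.15, adjusted p = 0.567). Col1a1 was not called either, at 4.95 and 28.3 against 41.1 and 3.30 (adjusted p = 0.638), and the libraries overlapped. Without doublets its log2 fold change was -3.00 (adjusted p = 0.00347). Spp1 turned round, to 205 and 229 against 4.57 and 1.65, and the Nanog-zero cells with fewer than 2 Epcam UMIs had 549 and 612 CPM of it.

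Several genes were higher in the epithelial cells that lacked Nanog. Ly6a (Sca-1), a surface antigen of fibroblasts and progenitors, stood at 115 and 68.5 CPM in Nanog-positive cells against 882 and 591 (log2 fold change -3.03 ± 0.24, adjusted p = 5.80e-07). Tgm3, the transglutaminase of cornifying epithelium, stood at 0.825 and 11.9 against 58.2 and 233, and Cd34, a progenitor antigen, at 18.2 and 11.2 against 77.7 and 57.8. Cdkn1a stood at 408 and 382 against 714 and 761, and 13 of 24 p53 targets were called lower with none higher. Limch1, Wnk4 and Gna14 were also among the 8 most negative, at log2 fold changes of -3.93, -3.46 and -4.12. S phase genes were called higher in 15 of 40 cases and G2/M genes in 7 of 49, with none lower.

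Within the 192 cells the pluripotency genes were unevenly shared. Leaving Nanog out, pluripotency genes took 0.430 and 0.456% of UMIs in the median cell, with quartiles of 0.261 and 0.843% in A and 0.262 and 0.830% in B. Maxima were 1.95 and 2.08%. The median was 0.175 and 0.194% in Nanog-zero cells and 1.45 and 1.44% in mESC A2S. The 5th percentile of mESC A2S cells, 1.09%, was reached by 30 Nanog-positive cells (15.6%, exact 95% interval 10.8 to 21.6%), 13 in A and 17 in B, by 1 of 46 cells with 1 Nanog UMI and by 4 of 246 with none. Of 302 mESC FBS cells, 224 (74.2%) reached it. Of 729 MEFs, 29 also reached it. Spp1 is on the list and is a gene of MEFs; with Spp1 left out, an alternative chosen after seeing the data, no MEF, 2 Nanog-zero cells and 34 Nanog-positive cells (17.7%) reached the ESC 5th percentile computed in the same way. On the fibroblast side, 181 of the 192 cells (94.3%) lay at or below the 95th percentile of mESC A2S cells, 0.317% of UMIs, against 84 of the 246 Nanog-zero cells (34.1%). Both at once held for 30 of the 192 cells and for 1 Nanog-zero cell.

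**Figure D3:**
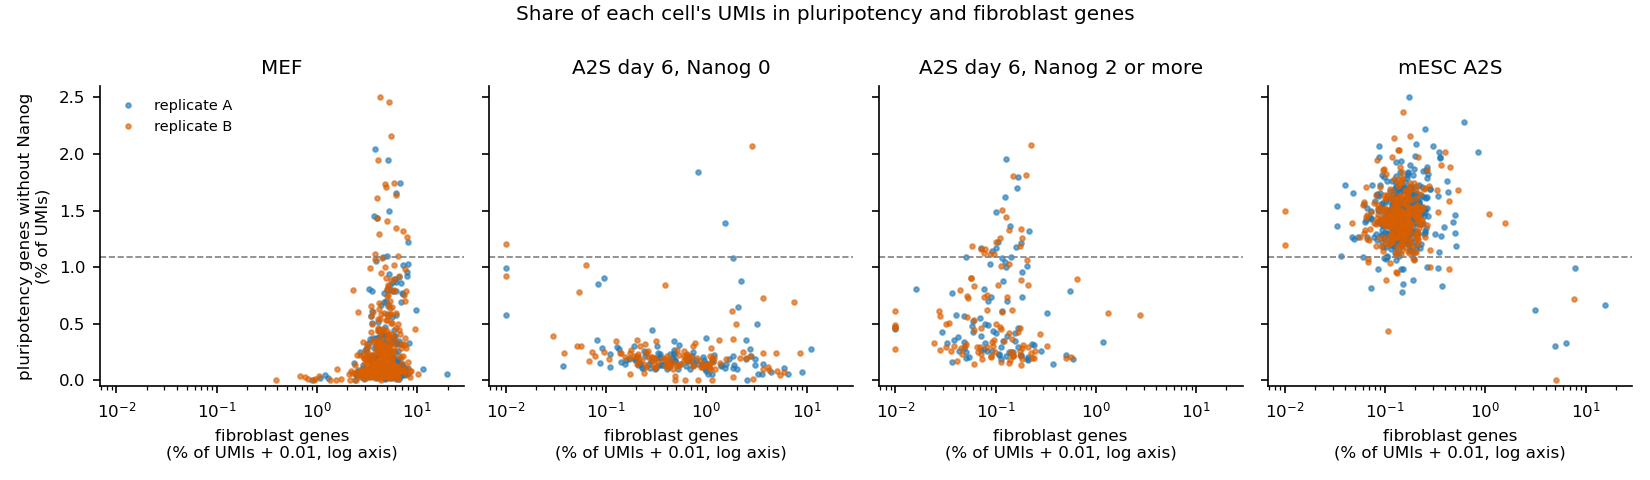
Each dot is a cell, with the percent of its UMIs in fibroblast genes plus 0.01 on a logarithmic horizontal axis and the percent in pluripotency genes without Nanog on the vertical axis, for MEFs, Nanog-zero and Nanog-positive A2S day 6 cells and mESC A2S. The dashed line is the mESC A2S 5th percentile, 1.09%; the Nanog-positive cells are spread along the vertical axis at low fibroblast shares, and 30 of 192 are at or above the line.

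Cells with Dppa3 also carried more of several other late genes. The 109 Nanog-positive cells with no Dppa3 UMI (50 in A and 59 in B) and the 67 with 2 or more (29 and 38) had similar depths, with medians of 13686 and 13057 UMIs against 13055 and 11568. Sox2 went from 5.80 and 19.4 CPM in cells without Dppa3 to 266 and 355 in those with it. Dppa5a went from 17.4 and 84.2 to 364 and 337, and Zfp42 from 7.25 and 2.59 to 64.9 and 82.1. Pou5f1, at 18.8 and 25.9 against 102 and 111, Esrrb, at 40.6 and 49.2 against 273 and 226, and Tdh, at 184 and 262 against 1130 and 834, showed the same order in both libraries. Epcam and Alpl were shared more evenly. Epcam stood at 617 and 475 CPM without Dppa3 and 517 and 455 with it, and Alpl at 228 and 247 against 368 and 470. Nanog itself, the gene of the rule, stood at 403 and 532 against 917 and 892. These splits describe cells of 1 sample at a time and carry no test.

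**Figure D4:**
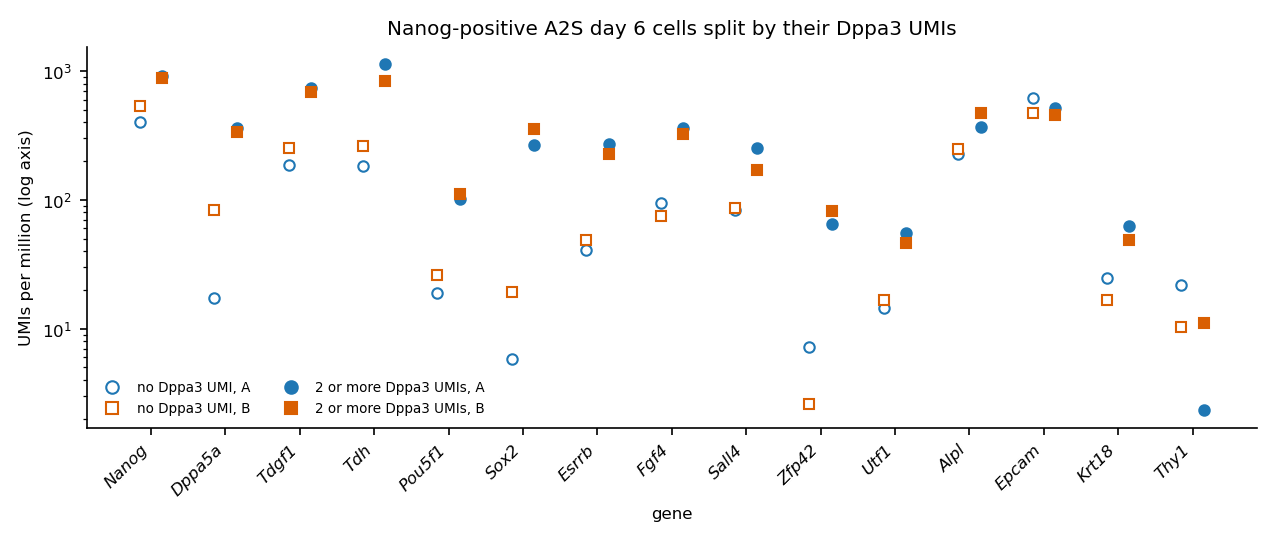
Level of 15 genes in CPM (logarithmic axis) in Nanog-positive A2S day 6 cells with no Dppa3 UMI (open symbols) and with 2 or more (filled symbols), per library. Sox2, Zfp42, Dppa5a, Esrrb and Tdh lie apart in both libraries, whereas the Epcam symbols lie close together.

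A split on another marker gave the same order. Cells with 2 or more Dppa5a UMIs (23 and 24) had Sox2 at 335 and 493 CPM and Dppa3 at 368 and 493, against 20.7 and 28.5 and 74.9 and 51.8 in the 61 and 74 cells with none. Cells with 2 or more Pou5f1 UMIs (16 and 19) had Dppa3 at 380 and 303 CPM against 38.6 and 59.7 in the 50 and 64 with none.

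The next comparisons set the same sums of Nanog-positive cells against 3 other groups, in 1 model over 10765 genes, so they share these sums. Against mESC A2S, the ESCs given A2S for 2 days, the Nanog-positive cells were lower in most pluripotency factors and in germline genes, and higher in epithelial, glycolytic and imprinted genes. edgeR called 2827 genes higher (26.3%) and 2975 lower (27.6%), with a median of 0.0030 over all genes. This comparison took all 668 mESC A2S cells, 45 of which had fewer than 2 Nanog UMIs. Nanog itself, the gene of the rule, stood at 602 and 648 CPM in Nanog-positive cells and at 1203 and 1202 in mESC A2S. In mESC FBS it stood at 422 and 384 CPM. The part of the Nanog level in the other differences was not tested.

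Of 22 pluripotency transcription factors, 20 were called lower and none higher, with a median log2 fold change of -1.86 and summed levels of 1506 and 1336 CPM against 5225 and 5047. Zfp42 stood at 31.4 and 35.0 CPM against 461 and 450 (log2 fold change -3.86 ± 0.15, adjusted p = 2.19e-25). Tbx3, a T-box factor of naive ESCs, stood at 31.4 and 28.3 against 367 and 368 (-3.71 ± 0.15, adjusted p = 9.51e-25), and Sox2 at 105 and 131 against 628 and 572 (-2.43 ± 0.14, adjusted p = 1.38e-19). In mESC FBS, by level and without a test, Zfp42 stood at 229 and 216 CPM and Sox2 at 778 and 657. Tbx3 stood there at 28.3 and 25.8, near the Nanog-positive cells. Klf5 was lower by 4.16 on the log2 scale, at 8.25 and 7.44 against 140 and 124. Pou5f1 was not called, at 54.5 and 54.3 against 71.4 and 52.1 CPM (-0.27 ± 0.19, adjusted p = 0.223), and the libraries overlapped. Dppa3 was not called at 149 and 141 against 107 and 124 (0.24 ± 0.12, adjusted p = 0.0991), though with a minimum of 3 Nanog UMIs it was (log2 fold change 0.34, adjusted p = 0.0169). Tdgf1, at 397 and 395 against 685 and 689, and Klf2, at 383 and 298 against 717 and 717, were lower in edgeR but not in DESeq2 (adjusted p = 0.138 and 0.164).

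Of 28 other pluripotency genes, 21 were called lower and 3 higher. Dnmt3l, a cofactor of the DNA methyltransferases, stood at 6.60 and 3.72 CPM against 198 and 191, and Tex19.1, a repressor of retrotransposons, at 27.2 and 24.6 against 586 and 550 (log2 fold change -4.55 ± 0.15, adjusted p = 2.24e-27). Lefty1, the Nodal antagonist, was called higher, at 105 and 79.6 against 5.08 and 2.15. Germline genes stood farthest below. Of 23 tested, 21 were called lower and none higher, with a median of -4.97, or -3.71 with genes at 0 in one group set to their bound, and the list summed to 106 and 91.5 CPM against 1576 and 1563. Dazl, an RNA-binding protein of germ cells, had 2 UMIs in Nanog-positive cells against 4251, a ratio of 0.00137 with a counting interval from 0.000166 to 0.00497. Sycp1, of the synaptonemal complex, had none and was at least 39.5-fold lower. Pramel6, which lowers DNA methylation in ESCs, had none and was at least 92.0-fold lower.

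Epithelial genes ran the other way, with 20 of 27 called higher and 3 lower and a median of 1.85. Epcam stood at 590 and 471 CPM against 118 and 125 (log2 fold change 2.03 ± 0.13, adjusted p = 5.37e-18), and the splicing regulator Esrp1 at 47.9 and 59.5 against 2.41 and 1.61. In mESC FBS, Epcam stood at 346 and 387 CPM. Cdh1 was among the 3 called lower, at 399 and 351 against 632 and 666. Of 22 glycolysis and hypoxia-response genes, 17 were called higher and 2 lower, with summed levels of 13357 and 13653 CPM against 5011 and 4842. The lactate exporter Slc16a3 stood at 75.9 and 84.8 against 1.60 and 0.269. Of 20 imprinted genes, 13 were called higher and 4 lower, whereas against Nanog-zero cells 12 of 19 were called lower and 1 higher. The list summed to 4633 and 5061 CPM in Nanog-zero cells, 2163 and 2480 in Nanog-positive cells and 903 and 851 in mESC A2S. Grb10, an adaptor that dampens insulin signalling, stood at 392 and 449 against 28.1 and 17.5, and H19, a noncoding RNA, at 40.5 and 119 against 0 and 0.269, or 209 UMIs against 1. Cdkn1a stood at 408 and 382 against 167 and 166 (1.15 ± 0.12, adjusted p = 1.33e-11).

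The fibroblast list summed to about the same level on both sides, 1561 and 1659 CPM against 1658 and 1484. The 5th percentile of MEFs for these genes, 2.71% of UMIs, was reached by 7 of 668 mESC A2S cells (5 in A and 2 in B). It was reached by 1 of the 192 Nanog-positive cells. The part of such cells in the sums was not tested. Twist1 stood at 26.4 and 18.6 CPM against 2.14 and 3.49 in mESC A2S and was called higher (log2 fold change 2.87 ± 0.43, adjusted p = 2.04e-07). With the cells of the feeder list kept in all groups, Twist1 was at -0.19 (adjusted p = 0.631). Col1a1, at 4.95 and 28.3 against 29.1 and 16.7, was not called, and without doublets it was at -3.13 (adjusted p = 5.95e-07). Of 22 fibroblast genes, 10 were called higher and 5 lower. S phase genes were mostly lower or not called (2 of 40 higher, 21 lower), and G2/M genes likewise (5 of 50 higher, 27 lower). Among the strongest single differences, Ccnd2 (cyclin D2) stood at 376 and 381 CPM against 4.81 and 2.69 and Mgst1, a glutathione transferase of membranes, at 206 and 176 against 1.34 and 0. Myb, a transcription factor of progenitor cells, stood at 99.9 and 107 against 0 and 1.08. Egr1, an immediate early gene, had 1 UMI against 1187. Eif2s3y and Ddx3y, of the Y chromosome, had 0 and 1 UMI against 900 and 833. Sex may thus differ between the cells compared, and it cannot be told apart from line and state here.

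**Figure D5:**
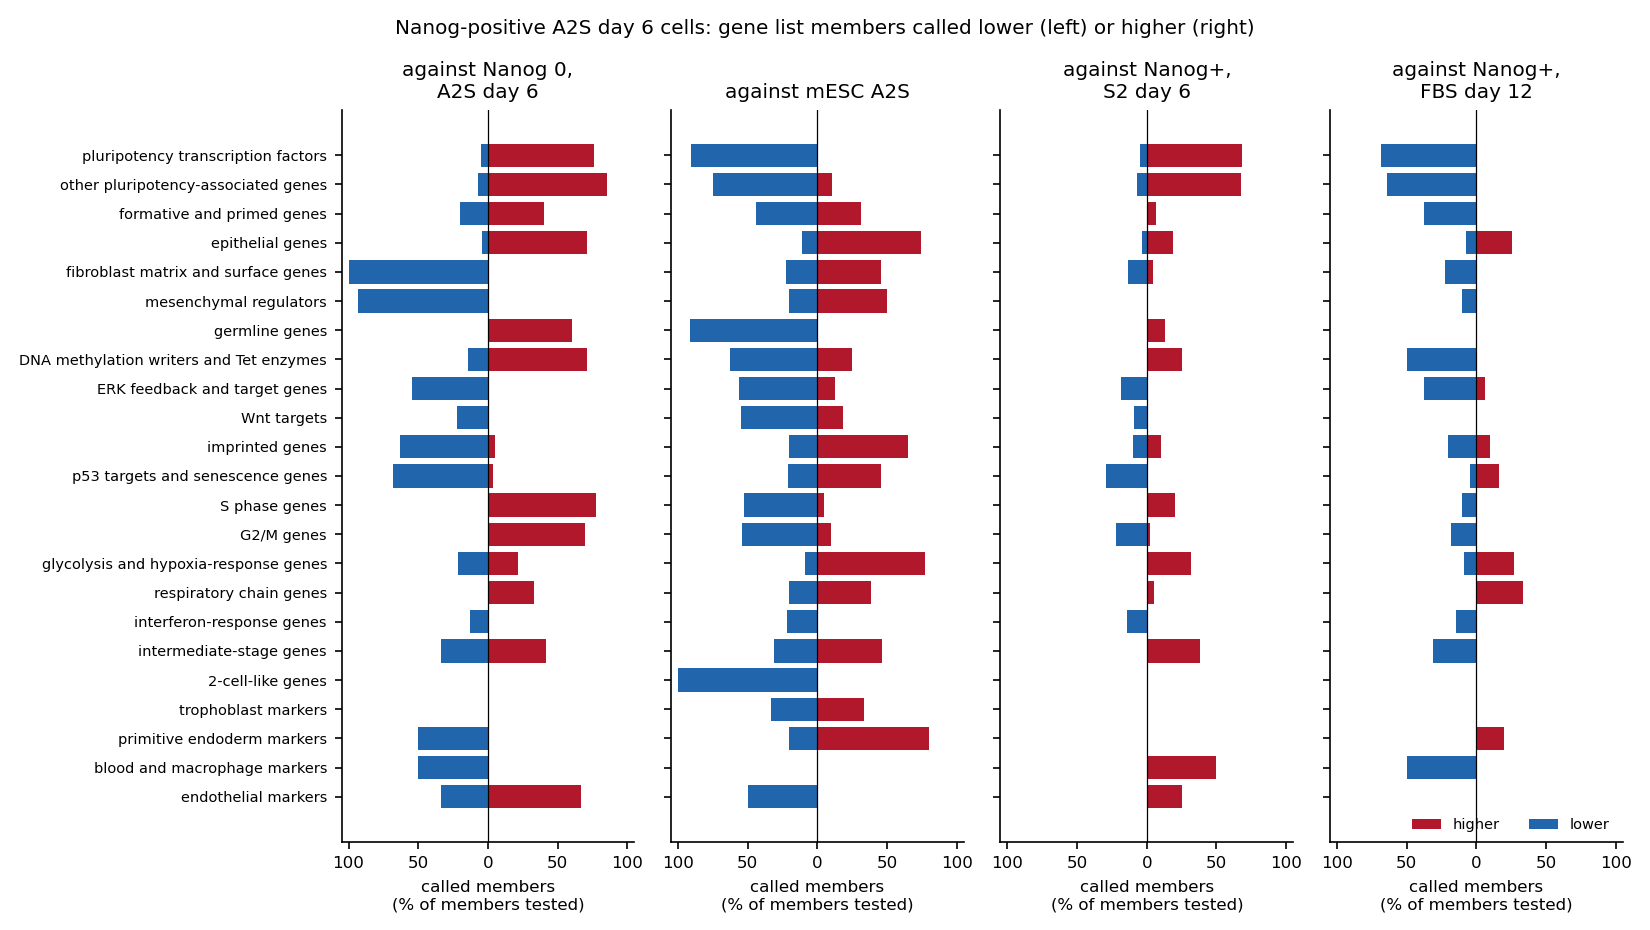
Percent of the tested members of 23 gene lists that were called higher (red, to the right) or lower (blue, to the left) in Nanog-positive A2S day 6 cells, in 4 panels for the comparison with Nanog-zero cells, mESC A2S, Nanog-positive S2 day 6 cells and Nanog-positive FBS day 12 cells. The pluripotency lists point right against Nanog-zero and S2 cells and left against mESC A2S and FBS day 12 cells.

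The comparison with S2 asked what Nanog-positive cells of the same day were without ascorbic acid. There were 71 of them (42 in A and 29 in B), and several late genes of the network were nearly absent from them. Nanog itself, the gene of the rule, stood at 270 and 394 CPM in them against 602 and 648 in A2S. Median Nanog UMIs per cell were 3 in both S2 libraries, against 7 and 6 in A2S. The part of this lower Nanog level in the other differences was not tested. Of 10765 genes, 557 were called higher in A2S (5.17%) and 337 lower (3.13%). S2 replicate A bore on these counts, for without it the sum of calls went from 894 to 200. Of 22 transcription factors, 15 were called higher in A2S and 1 lower, with a median of 2.42, or 2.08 with genes at 0 at their bound, beside 0.024 for all genes. Of 28 other pluripotency genes, 19 were called higher and 2 lower, and the list summed to 4027 and 3943 CPM against 1847 and 2509.

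Dppa5a had 428 UMIs in A2S and none in S2, at least 53.5-fold higher. Dppa3 stood at 149 and 141 CPM against 4.82 and 2.99 (log2 fold change 5.11 ± 0.39, adjusted p = 1.82e-13), Esrrb at 128 and 109 against 3.21 and 14.9 (4.02 ± 0.39, adjusted p = 3.06e-10), and Tdgf1 at 397 and 395 against 14.5 and 71.7 (3.53 ± 0.24, adjusted p = 4.55e-15). Sox2 had 303 UMIs against 2, a ratio of 56.8 with an interval from 15.6 to 471, and Pou5f1 139 against 2, a ratio of 26.0 from 7.07 to 217. Klf2, at 383 and 298 against 20.9 and 131, and Tfcp2l1, a factor of the naive network, at 165 and 176 against 22.5 and 41.8, were called higher as well. None of these calls was lost without S2 replicate A. At 5000 UMIs per cell, no S2 cell of 40 and 28 showed Dppa5a, Dppa3, Pou5f1 or Sox2, and Tdgf1 was seen in 4 of 40 and 5 of 28. None of the 71 reached the mESC A2S 5th percentile of pluripotency UMIs, with or without Spp1, against 30 of 192 in A2S.

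Other genes of the panel did not separate the media, or rested on S2 replicate A. Utf1, a chromatin factor of ESCs, was at 33.8 and 29.0 CPM in A2S against 16.1 and 47.8 (adjusted p = 0.794), L1td1 at 277 and 286 against 236 and 188 (adjusted p = 0.0758), and Dnmt3b at 52.8 and 54.3 against 28.9 and 56.7 (adjusted p = 0.363). Cdh1 was at 399 and 351 against 387 and 305 (log2 fold change 0.10 ± 0.13, adjusted p = 0.724). Epcam was called higher (0.60 ± 0.15, adjusted p = 0.00709) and so was Sall4 (1.01 ± 0.24, adjusted p = 0.00434). Without S2 replicate A these were 0.18 (adjusted p = 0.712) and 0.17 (adjusted p = 0.836). Cdkn1a was lower in A2S, at 408 and 382 against 758 and 567 (-0.76 ± 0.12, adjusted p = 3.28e-05), and -0.50 without that library (adjusted p = 0.0912). Of 24 p53 targets, 7 were called lower and none higher.

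A further set of genes was lower in A2S. Eif4a1, a helicase of translation initiation, stood at 26.4 and 26.0 CPM against 474 and 451 (log2 fold change -4.12 ± 0.18, adjusted p = 5.44e-22), Hspa8, a heat shock cognate chaperone, at 171 and 159 against 760 and 621, and Sox11 at 33.8 and 38.7 against 154 and 158. Nanog-zero levels of Eif4a1, Hspa8 and Sox11 are not given here for either medium. Their differences may therefore not be particular to Nanog-positive cells. Of 50 G2/M genes, 11 were called lower and 1 higher, with Hmmr at 92.5 and 68.5 against 178 and 194. Of 22 glycolysis genes, 7 were called higher, with Aldoc at 52.8 and 49.1 against 11.2 and 5.97.

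Whether Nanog-positive cells departed from Nanog-zero cells of their own medium by different amounts was tested with an interaction term, added after the data had been seen. Of 10588 genes, 63 had a larger log2 difference in A2S than in S2 (0.595%) and 69 a smaller one (0.652%). Of the 27 genes of the panel, Tdh and Klf4 passed. The Tdh difference was 3.09 in A2S and 1.57 in S2, apart by 1.52 ± 0.21 (adjusted p = 6.61e-06). Klf4 differed by 0.76 in A2S and -2.06 in S2, apart by 2.82 ± 0.66 (adjusted p = 0.0150), a call that was lost when cells were thinned to 3000 UMIs (adjusted p = 0.360). Its S2 side rested on 5 UMIs in Nanog-positive cells, 4 in A and 1 in B. Dppa3, Sox2 and Pou5f1 did not pass, and in S2 they rested on 4, 2 and 2 UMIs.

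The last comparison set the cells against Nanog-positive cells of FBS day 12, the slower route without small molecules. These were 12 and 13 cells with 131583 and 150666 UMIs in all, the thinnest group here. At 5000 UMIs per cell they were represented by 10 and 11 cells. Nanog stood at 600 and 1062 CPM in them, against 602 and 648 in A2S, and its part in the other differences was not tested. Of 10765 genes, 296 were called higher in A2S (2.75%) and 414 lower (3.85%), 41.7% of calls being higher, against 26.9% in DESeq2 (199 higher and 540 lower). Of the 22 transcription factors, 15 were called lower in A2S and none higher, with a median of -1.90 beside 0.071 for all genes, and of the 28 other pluripotency genes, 18 and none. In all 17 of the 25 FBS day 12 cells (68.0%) reached the mESC A2S 5th percentile of pluripotency UMIs, beside 74.2% of mESC FBS cells. The medians of the FBS day 12 cells were 1.36 and 1.58% against 0.430 and 0.456%.

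Nr0b1, Sox2 and Sall1 were among the transcription factors that were lower in A2S, and Utf1, outside that list, was lower too. Utf1 was at 33.8 and 29.0 CPM against 464 and 325 (log2 fold change -3.60 ± 0.26, adjusted p = 8.50e-14) and Nr0b1 (Dax1), an orphan nuclear receptor, at 65.2 and 31.3 against 418 and 425 (-3.11 ± 0.25, adjusted p = 2.26e-12). Sox2 was at 105 and 131 against 403 and 810 (-2.34 ± 0.21, adjusted p = 4.88e-11). Sall1, a zinc-finger factor, was at 4.13 and 5.95 against 122 and 139 (-4.63 ± 0.44, adjusted p = 1.86e-10). Others were not called. Dppa5a was at 163 and 171 against 182 and 272 (-0.42 ± 0.22, adjusted p = 0.291), Dppa3 at 149 and 141 against 182 and 193 (-0.34 ± 0.24, adjusted p = 0.468), and Klf2 at 383 and 298 against 334 and 372 (-0.02 ± 0.24, adjusted p = 0.981). Zfp42 was called lower, at 31.4 and 35.0 against 45.6 and 139, but without FBS replicate B its log2 fold change was -0.37 (adjusted p = 0.810). The call of Tdh, at 562 and 469 against 798 and 1321, was also lost without that library (-0.55, adjusted p = 0.0913).

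Of 16 genes that report ERK signalling, 6 were called lower in A2S and 1 higher. Dusp6, a phosphatase of ERK, stood at 4.13 and 0.744 CPM against 122 and 99.6 (log2 fold change -5.46 ± 0.57, adjusted p = 1.82e-09). Etv4, an ETS factor downstream of ERK, had 1 UMI against 21, a ratio of 0.00526 with an interval from 0.000127 to 0.0327. It also stands on the list of pluripotency transcription factors, so the counts for that list and this one are not fully separate. Otx2, a factor of the formative state, had 1 UMI against 31, a ratio of 0.00356 from 0.0000874 to 0.0214. Trh, the thyrotropin-releasing hormone gene, stood at 33.8 and 29.0 against 540 and 1739, and Dlk1, an imprinted Notch-like ligand, at 1.65 and 2.23 against 144 and 146. Of the respiratory chain genes, 13 of 39 were called higher in A2S and none lower, with Cox8a at 933 and 1014 against 532 and 538 (0.90 ± 0.14, adjusted p = 1.15e-05).

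Several fibroblast and imprinted genes rested on 1 library here. The fibroblast list summed to 1561 and 1659 CPM in A2S and to 4917 in FBS replicate A and 1254 in replicate B, and 5 of 22 members were called lower. Mgp, an inhibitor of calcification, stood at 0.825 and 0.744 against 1056 and 26.6, and H19 at 40.5 and 119 against 1079 and 6.64. Without FBS replicate A, Mgp was not called (adjusted p = 0.193), H19 was at 3.65 in place of -2.64 (adjusted p = 0.103), and Bgn, a matrix proteoglycan, at 0.21 in place of -4.19 (adjusted p = 0.981). The part of these markers in the other differences from FBS day 12 was not tested. Epcam was higher in A2S, at 590 and 471 against 380 and 193 (adjusted p = 0.00381), but not without FBS replicate B (log2 fold change 0.56, adjusted p = 0.247).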

How the data were processed

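Single cells of 32 libraries were measured by droplet 3′ RNA sequencing. The deposited tables hold UMI counts per gene and cell, made by the authors; bcl2fastq 2.19, STAR and the mm10 build are named in the submitters' processing notes, with their other settings not given in the sources used here. The tables list 24421 genes, 19195 of them with a UMI. Cells on the authors' deposited list of feeder cells, and cells with fewer than 1000 UMIs, were left out; 3 columns of that list were not used. At A2S day 6, 4 of 492 barcodes were listed and 4 were too shallow. The members, gene lists and comparisons were chosen with earlier results of these data known, so their directions are not independent evidence.

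UMIs were summed per library and cell class and tested with edgeR 4.0.16 in R 4.3.3 (quasi-likelihood, TMM, filterByExpr, two-sided, Benjamini-Hochberg over all genes tested). SE is the log2 fold change divided by the square root of F. Comparisons within A2S day 6 had the library as a block. The others had none, since the labels do not tie letters of different groups to one culture. Deviations of sums with the same letter correlated between -0.063 and 0.053 over 4578 genes. Counting noise adds to such deviations, so weak correlations cannot exclude a pairing. Nanog was tested nowhere and Epcam not where it chose cells. Summed levels alone do not separate fewer cells with a gene from less of it per cell, and shares of cells are given for that reason. Genes named were a panel of 27, the 8 called genes of largest fold each way at 50 CPM or more without overlap between libraries (ribosomal, mitochondrial, Gm and Rik genes left out), and up to 2 called genes each way, or the 2 of smallest p, from each of 23 lists. DESeq2 1.42.0, other filters, depths and single libraries left out were the alternatives. Doublets were called with Scrublet in scanpy 1.11.5 and kept. Simulated counts tested the script.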

Additional observations from a re-analysis of the deposited data

Results flagged for a closer look

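The gap between Nanog-positive and Nanog-zero cells differed between A2S day 6 and S2 day 6 for 2 genes of the panel, by the interaction term of the edgeR fit added after the data were seen. For Tdh it was larger in A2S by 1.52 on the log2 scale (adjusted p = 6.61e-06). For Klf4 it was larger by 2.82 (adjusted p = 0.0150), with the call lost after thinning to 3000 UMIs (adjusted p = 0.360). The S2 side of the Klf4 value rests on 5 UMIs in Nanog-positive cells, 4 in A and 1 in B.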

How the results depend on the processing

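Counts of called genes moved with the tool and with depth. DESeq2 called 1038 genes in place of 3578 against Nanog-zero cells and 417 in place of 1586 against epithelial Nanog-zero cells, where its share of higher calls was 28.3% in place of 39.4%. Thinning each cell to 3000 UMIs left 1517, 386, 2648 (of 5802, mESC A2S), 167 (of 894, S2), 109 (of 710, FBS day 12) and 21 (of 132, interaction) calls; it removes most UMIs by construction. With no count filter there were 410 calls against S2 and 377 against FBS day 12. With listed cells kept there were 591 against S2, and with the compared groups alone 434 against FBS day 12. Leaving out 1 library gave 4643 to 5030 calls against mESC A2S, 200 to 724 against S2 and 446 to 650 against FBS day 12. The lowest counts came without S2 replicate A and without FBS replicate A, and 580 remained against S2 without A2S replicate B; a lone library was taken to vary like the other groups. Within A2S day 6, leaving out a library leaves no residual degrees of freedom, so no such test was made. A minimum of 3 Nanog UMIs left 9 cells in an FBS day 12 library, and that comparison was not run.

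With the letter as a replicate block, calls were 5585, 793 and 703 against mESC A2S, S2 and FBS day 12, and without the block 3476 and 1642 within A2S day 6. The block moved no count by over 1.5 times.

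6 values of called genes turned round. Against mESC A2S with listed cells kept these were Twist1 (-0.19), Thbs2 (-0.65) and Zeb2 (-0.08). Against FBS day 12 they were Bgn (0.21) and H19 (3.65) without FBS replicate A, and Pfkp (0.72) after thinning. With any one library left out, Bgn ranged from -7.23 to 0.21 and H19 from -3.65 to 3.65. The cause was not tested. Over all values and alternatives, 5526 were counted as unchanged, 446 lost the threshold and 20 gained it. For genes, unchanged meant the same side of the threshold, with the same direction asked only of genes called in the main fit. A library taken alone had no test, and there too direction was asked only of called genes. The 2 A2S day 6 shares with 2 or more Nanog UMIs were 27.7 and 35.1% after thinning to 5000 UMIs. Shares of Nanog-positive cells with a UMI of Tdgf1 were 42.5 and 47.6% at 2000 UMIs. Those for Dppa3 were 19.5 and 20.0% at 2000 UMIs and 42.5 and 43.8% unthinned. Those for Pou5f1 were 11.5% at 2000 UMIs in A, 35.9 and 32.4% at 10000 UMIs, and 42.5 and 39.1% unthinned. Depth therefore sets what a single cell can show.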

Other observations

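Signalling and methylation genes also differed between Nanog-positive A2S day 6 cells and mESC A2S, by the edgeR quasi-likelihood test with Benjamini-Hochberg adjustment. Over all genes, 26.3% were called higher and 27.6% lower. Of 11 Wnt targets, 6 were called lower and 2 higher. Cdx1, a caudal homeobox factor, had no UMI against 204 and was at least 23.3-fold lower. Myc stood at 132 and 126 CPM against 12.6 and 11.3 (log2 fold change 3.33 ± 0.18, adjusted p = 1.17e-20), and copies of an induced factor could add to it. Of 16 ERK reporter genes, 9 were called lower and 2 higher, among the latter Ier3, at 52.0 and 46.1 against 8.29 and 7.79. With listed cells kept, Ier3 was not called (adjusted p = 0.295). Of 8 DNA methylation writers and Tet enzymes, 5 were called lower and 2 higher. The de novo methyltransferase Dnmt3b stood at 52.8 and 54.3 CPM against 267 and 279, and its relative Dnmt3a was higher, at 35.5 and 26.8 against 10.7 and 8.60. Respiratory chain genes were called higher in 15 and lower in 8 of 39 cases, not far from the shares over all genes, with Sdhd, a subunit of succinate dehydrogenase, at 613 and 621 against 312 and 285.

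Against Nanog-positive S2 day 6 cells, 5 of 13 genes linked to intermediate stages were called higher and none lower, beside 5.17% and 3.13% of all genes. Igfbp2, which binds insulin-like growth factors, stood at 284 and 342 CPM against 91.6 and 125 (log2 fold change 1.62 ± 0.17, adjusted p = 3.01e-09). Sox15 had 106 UMIs against 2, a ratio of 19.9 with a counting interval from 5.36 to 166. Tet1 stood at 87.5 and 103 against 16.1 and 44.8, a call lost without S2 replicate A (log2 fold change 1.12, adjusted p = 0.106).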
